A study of Arabidopsis thaliana with 16 samples.

Results

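Narrow genic islands of lysine 2-hydroxyisobutyrylation (Khib) on chromosomes 3 and 5 of Arabidopsis thaliana are described here. An island is a stretch of the genome that the authors listed as enriched in ChIP reads, in steps of 200 bp. The islands were taken from the list made for the comparison of hda6 with the wild type. They lie on chromosome 3 or 5, span at most 400 bp and share at least 1 bp with a gene. There were 1876 of them, which is 8.07% of the 23250 islands in that list and 31.3% of the 5998 on the same chromosomes. Chromosome 3 held 846 and chromosome 5 held 1030, and 480 were 200 bp and 1396 were 400 bp long. The islands set beside them on the same chromosomes were 2446 wider islands over genes and 511 narrow islands that touched no gene.

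The mark was profiled by ChIP-seq, the sequencing of DNA bound to immunoprecipitated chromatin, in untreated 12-day-old whole seedlings of 4 genotypes, grown on plates at 22 °C. Col-0 is the wild type. The sant-null plants are quadruple mutants, hda6 is a line from EMS mutagenesis and hda9 carries a T-DNA insertion, per the labels, which speak of a line each for hda6 and hda9. Each genotype had 2 ChIP and 2 input libraries, but the tables used here give 1 ChIP value per genotype.

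Khib is an acyl group on histone lysines that has been mapped to the bodies and 5′ ends of transcribed genes. HDA6 and HDA9 are histone deacetylases, enzymes that remove acyl groups from lysines. SANT domains occur in many subunits of chromatin-modifying complexes.

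The spread between replicates is therefore unknown for every difference below, and no p-value of a comparison between plants can be given. Intervals in parentheses after a ratio are exact 95% intervals that cover counting error only. Without input values, a level is the mark and the background of the library together. In whole seedlings, less of the mark per cell and fewer cells carrying it cannot be told apart. Behind the gene tables stand 18.6 M reads for Col-0, 16.7 M for hda6, 12.0 M for sant-null and 38.8 M for hda9. The read totals behind the island tables are 1.92, 2.04, 2.14 and 1.90 times as large in the same order.

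Islands in these tables tend to repeat the same positions on several chromosomes. Of the 1876 narrow genic islands, 1488 (79.3%) lie at positions that an island on another chromosome also covers. The islands of chromosome 3 were covered in this way by islands of chromosome 1 in 72.8% of cases and by islands of chromosome 5 in 12.6%. Their density in Col-0 followed the RPKM (reads per kilobase of gene and M reads of the library) of the genes they lie on, with a Spearman rho of 0.24 over the 846 islands of chromosome 3 and 0.27 over the 1030 of chromosome 5. With genes at the same coordinates on any other chromosome rho lay between -0.06 and 0.00. Wide genic islands gave 0.53 and 0.54 with their own genes. These points share libraries and neighbouring islands, so the values are a description. In 33 islands the Col-0 read count was above that of all the genes they touch, and a named island of this kind is marked as such. Both counts are raw, and the Col-0 total behind the island counts is 1.92 times that behind the gene counts. An excess in raw reads is therefore not always an excess after scaling. At the 388 islands whose positions no other chromosome repeats, the median log2 ratio to Col-0 was -0.02 in hda6, -0.50 in sant-null (279 of them listed there) and -0.96 in hda9 (269 listed), beside -0.02, -0.44 and -0.88 over all narrow genic islands.

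The narrow islands lay mostly near the 5′ ends of single genes. Of the 1876, 1762 touched 1 gene, 110 touched 2 and 4 touched 3. When each island was given to the gene it overlaps longest, they fell on 1775 host genes, of which 1679 carried a single narrow island. The host was protein-coding for 1829 islands, a long non-coding RNA for 37, a tRNA for 5, a small nuclear RNA for 3 and another non-coding RNA for 2. A wide island lay on 239 of the hosts (13.5%) as well. Whether an island lies in an exon or an intron was not analysed here.

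The centre of the median island was 454 bp downstream of the 5′ end of its host. The interquartile range ran from 280 to 1345 bp. There were 223 centres in the first 200 bp of the gene, 576 in the next 200 bp and 304 in the 200 bp after that, against 110 between 600 and 800 bp. The first 600 bp held 1103 centres (58.8%), while these bases make up 21.8% of the length of the hosts. On the plus strand the share was 59.0% of 942 islands and on the minus strand 58.6% of 934, so both strands gave nearly the same share when measured from the 5′ end of the gene.

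A second, lower rise lay near the 3′ end. In the 1132 islands on hosts of at least 2000 bp, 552 (48.8%) were centred in the first 600 bp, which hold 16.4% of those genes' bases. Another 191 (16.9%) were centred in the last 600 bp, which hold the same 16.4% of bases, so that share is near an even spread. In steps of 10% of gene length, the first step held 294 of these islands and the second 253. The fifth step held 47 and the ninth 145. In these long hosts the islands thus had a main peak just inside the gene. A smaller one, seen against the middle of the gene, lay shortly before its end.

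**Figure D1:**
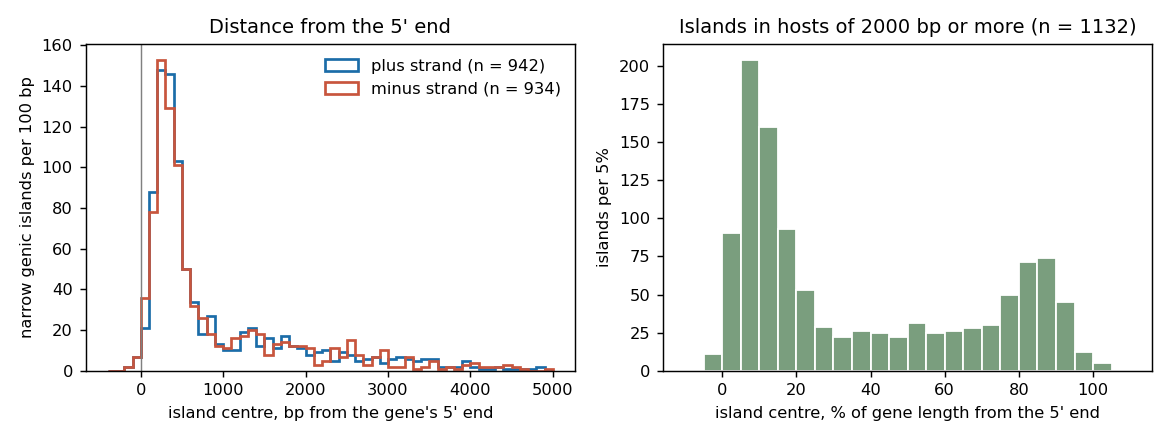
Position of the centres of narrow genic islands in their host genes. The left panel counts islands per 100 bp of distance from the 5′ end, drawn for the 942 islands on plus-strand hosts and the 934 on minus-strand hosts, and the right panel counts islands per 5% of gene length for the 1132 islands on hosts of at least 2000 bp; both strands peak between 200 and 400 bp, and long hosts show a smaller peak near the 3′ end.

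Genes under narrow islands had Khib levels between those of genes under wide islands and under none. The 1888 genes that a narrow island touches had a median of 10.7 RPKM in Col-0, against 14.7 in the 2691 genes under a wide island and 4.04 in the 9472 genes under none. In hda6 the same medians were 12.1, 17.1 and 5.003 RPKM. In sant-null they were 10.8, 15.0 and 6.12 RPKM, and in hda9 10.2, 12.6 and 7.86. The genes under no island had their highest median in hda9, where the genes under narrow and wide islands had their lowest. These groups were set by a list made from hda6 and Col-0, in which sant-null and hda9 had no part. The order of the genotypes is therefore partly set by that choice. The touched genes had a median length of 2278 bp, against 1708 bp for genes under no island.

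Within the islands themselves, levels were compared as RPM (reads per M reads of the library) per kb of island. The narrow genic islands had a median Col-0 level of 14.9 RPM per kb, with 5% of them below 9.92 and 5% above 20.2. Their read counts in Col-0 ran from 53 to 918 with a median of 189.5. Wide genic islands had a median of 13.9 RPM per kb and a highest level of 164, while the highest narrow island reached 64.1. Just inside the width limit, the 1396 islands of 400 bp had a median of 14.2 RPM per kb, and just outside it the 881 genic islands of 600 bp also had 14.2. The islands of 200 bp had the highest median, 16.9 RPM per kb.

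The strongest narrow island in Col-0 lay at the 5′ end of AT5G10340 (chromosome 5, 3253001 to 3253400, TAIR10), with 64.1 RPM per kb from 918 reads. It had 71.0 RPM per kb in hda6, 80.6 in sant-null and 46.1 in hda9. It stands well above the next island, and its ratio of 1.26 in sant-null (1.14 to 1.38) was above 1 where most islands were below. The other 5 of the 6 highest were between 24.9 and 28.1 RPM per kb. They lay on AT3G28335 (28.1), on BSMT1 (27.7), on the homeodomain-leucine zipper gene HB5 (26.5), on AT3G19030 (26.3) and on AGP4 (24.9), which encodes an arabinogalactan protein of the cell wall. BSMT1 encodes a methyltransferase that makes methyl salicylate and methyl benzoate. Its island held 198 reads while the whole gene held 68, so the island table counts more reads in that stretch than the gene table does over the gene. In hda9 the levels on AT3G28335, HB5, AT3G19030 and AGP4 were close to each other, between 10.3 and 11.6 RPM per kb.

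How an island came to be listed bears on its ratio. Each list of islands covers a mutant and Col-0, so an island can be listed because of either. Of the 1876 narrow genic islands, 1395 (74.4%) overlapped an island in all 3 lists, 73 were shared with the sant-null list alone, 5 with the hda9 list alone, and 403 (21.5%) were in the hda6 list alone. Among wide genic islands 198 of 2446 (8.09%) were in the hda6 list alone. The 403 had a median Col-0 level of 11.5 RPM per kb against 16.0 in the 1395, while their hda6 levels were near each other, 14.4 and 14.8. All 403 had a ratio of hda6 to Col-0 above 1. The other lists pair the same Col-0 with other mutants and do not hold these islands. Their direction in hda6 is therefore fixed by how they were listed and is not a finding.

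**Figure D2:**
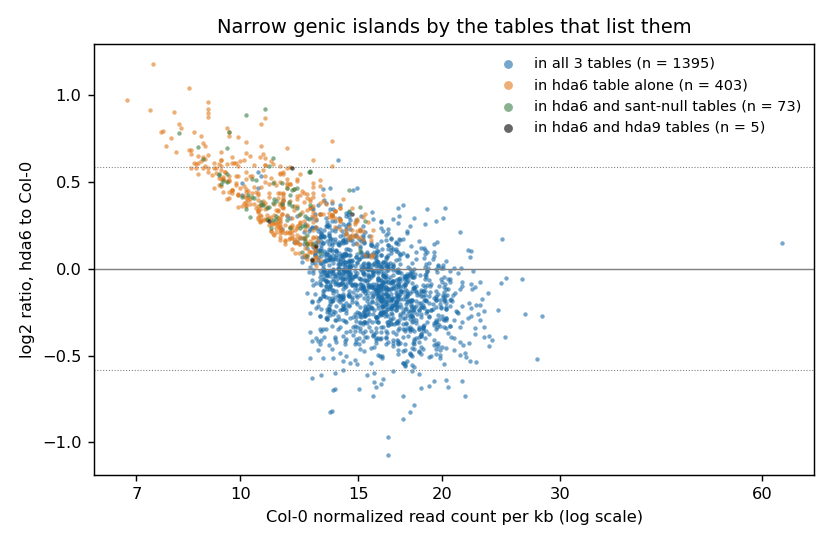
Log2 ratio of hda6 to Col-0 against the Col-0 level in normalized reads per kb (log axis), 1 point for each of the 1876 narrow genic islands, coloured by the lists that hold it; dotted lines mark 1.5-fold. The 403 islands of the hda6 list alone all lie above 0 and at low Col-0 levels, and the 1395 islands found in all 3 lists start at higher Col-0 levels and lie on both sides of 0.

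The first comparison asks how Khib at these islands changed in hda6. The median ratio of hda6 to Col-0 over the 1876 islands was 0.988 (log2 -0.02), and 90% of the ratios lay between 0.735 and 1.47. At least 1.5-fold higher were 80 islands (4.26%) and at least 1.5-fold lower 31 (1.65%), where the whole list gives 1.33% higher and 1.10% lower. Of the 80, 70 were in the hda6 list alone, 9 in the hda6 and sant-null lists and 1 in all 3 lists, and all 31 lower islands were in all 3 lists. Among the 1249 islands with the same start and end in all 3 lists, the median was 0.914, with 1 island higher and 31 lower.

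At an FDR under 0.05 as given in the authors' deposited table, 448 of the 1876 islands (23.9%) were called higher in hda6, beside 26.9% of the whole list. The authors' deposited table called 404 (21.5%) lower, beside 28.8%. Those calls treat the Col-0 count as free of error. Over all 5998 islands of chromosomes 3 and 5, 2.17% were at least 1.5-fold higher and 2.53% lower, and the authors' deposited table called 22.4% higher and 37.0% lower. Beside these chromosomes the narrow genic islands had more islands 1.5-fold higher, fewer 1.5-fold lower and a smaller share called lower. Their share called higher was similar. Of the 448 called higher, 294 were in the hda6 list alone and 62 in the hda6 and sant-null lists. Of the 1395 in all 3 lists, 89 (6.38%) were called higher and 404 (29.0%) lower. These shares thus depend on which lists hold the islands.

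Narrow islands off genes had a lower median ratio in hda6, 0.793, with 9 of 511 higher and 65 (12.7%) lower by 1.5-fold. Wide genic islands had a median of 1.03, with 40 higher and 12 lower. By width, genic islands of 200 bp had a median of 0.927, those of 400 bp 1.01 and those of 800 bp 1.04. By position, islands in the first 600 bp of the gene had a median of 0.979, those in the last 600 bp 1.00 and those between 1.01. The few islands centred before the gene start (18) had 0.837 and those past its end (15) had 1.07.

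**Figure D3:**
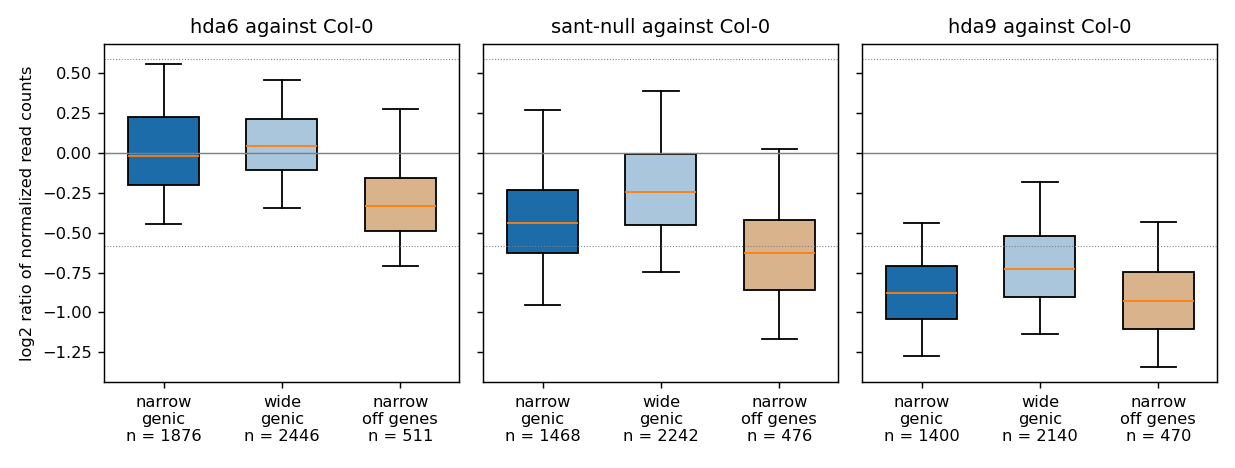
Log2 ratios of the mutant to Col-0 in narrow genic, wide genic and narrow non-genic islands of chromosomes 3 and 5, 1 panel per mutant. The box spans the quartiles with the median as a line, whiskers run from the 5th to the 95th percentile of islands, and dotted lines mark 1.5-fold; the medians of narrow genic islands are -0.02 in hda6, -0.44 in sant-null and -0.88 in hda9.

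The 8 lowest ratios in hda6 all belonged to islands found with the same start and end in the 3 lists. The lowest was at the 3′ end of AT3G28900 (chromosome 3, 10902001 to 10902200), where 119 reads in Col-0 and 54 in hda6 gave 3.32 and 1.58 RPM and a ratio of 0.475 (0.338 to 0.660). The same island had 1.87 RPM in sant-null and 1.53 in hda9. It was thus lower in all 3 mutants, which share the Col-0 value.

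At the end of AT5G14880, which the reference also names KUP8 for potassium uptake, 3.32 RPM in Col-0 stood against 1.70 in hda6, 1.36 in sant-null and 1.10 in hda9 (chromosome 5, 4817801 to 4818000). The ratio in hda6 was 0.510 (0.366 to 0.704), while the whole gene had 6.49 RPKM in Col-0 and 8.99 in hda6. The centre of this island lies past the end of AT5G14880, and the island also touches AT5G14890. AT5G52730 had 6.98 RPM in Col-0, 3.83 in hda6, 3.08 in sant-null and 2.62 in hda9, and its whole-gene values stood in the same order, 20.8, 11.6, 9.38 and 7.20 RPKM.

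TPR3, a corepressor gene of the TOPLESS family, had the island lowest in hda6 among the 4 genotypes. It had 5.45 RPM in Col-0, 3.07 in hda6, 4.56 in sant-null and 3.71 in hda9, with a ratio of 0.563 (0.440 to 0.718) in hda6 and 0.837 (0.660 to 1.06) in sant-null. TRZ4, whose product trims the 3′ ends of tRNA precursors, had 3.63 RPM in Col-0 and 2.10 in hda6, a ratio of 0.580 (0.428 to 0.779). Ratios of the other members of this group were 0.564 at AT5G52790, 0.566 at AT5G37360 and 0.601 at AT3G14595. The AT5G37360 island had 196 raw reads in Col-0, more than the 90 of its gene, with totals that differ as given above.

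The 8 highest ratios in hda6 belonged to islands of low Col-0 level, 6.77 to 10.9 RPM per kb, and 7 of them were in the hda6 list alone. At CPA, which encodes the alpha subunit of the protein that caps actin filaments, 1.48 RPM in Col-0 and 3.36 in hda6 gave a ratio of 2.27 (1.63 to 3.21), from 53 and 115 reads (chromosome 3, 1601201 to 1601400). The island also touches AT3G05525. CPA as a whole had 2.64 RPKM in Col-0, 5.71 in hda6, 5.69 in sant-null and 8.29 in hda9. At AT3G02480 the values were 1.68 and 3.45 RPM, a ratio of 2.06 (1.496 to 2.86).

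EP3, a chitinase gene, was the exception among these 8, with a wider island of 400 bp in the sant-null list. It had 2.18 RPM in Col-0 and 4.12 in hda6, a ratio of 1.89 (1.43 to 2.53), and its sant-null island had a ratio of 1.52 (1.19 to 1.94). The remaining ratios were 1.96 at AT3G18310, 1.95 at AT5G14820, 1.90 at AT5G59400, 1.88 at AT5G41270 and 1.87 at HIPP21, a gene of the family of isoprenylated metal-binding proteins. Whole-gene values at these 5 were also higher in hda6, for instance 4.28 RPKM in Col-0 and 9.15 in hda6 at HIPP21. Each gene takes in bases of its island, so gene and island values are not independent. The gene values were above Col-0 in hda9 at all 5 and in sant-null at all but HIPP21. AT3G18310 had 7.57 RPKM in Col-0, 12.0 in hda6, 13.2 in sant-null and 13.0 in hda9. The median over all genes of chromosomes 3 and 5 was 5.59 RPKM in Col-0 and 7.05 in hda6.

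**Figure D4:**
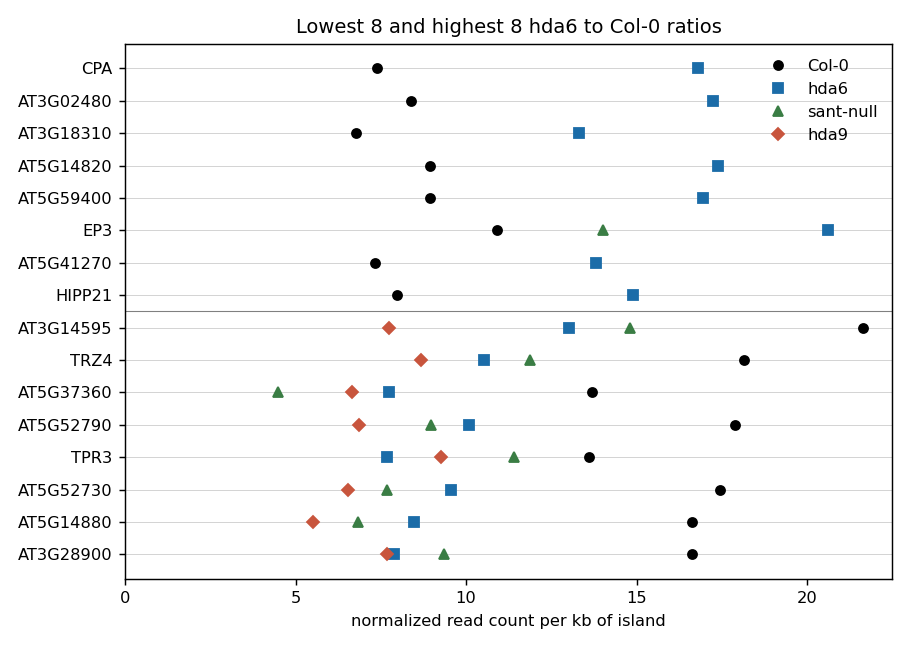
Normalized reads per kb of island in each genotype for the 8 narrow genic islands with the lowest and the 8 with the highest ratio of hda6 to Col-0, 1 row per host gene; a genotype without an island in its own list has no symbol. The lower 8 have Col-0 as their highest value, and the upper 8 have hda6 as theirs, with a sant-null value for EP3 alone.

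The second comparison sets sant-null beside Col-0. The sant-null list held an island at 1468 of the 1876, with the same start and end in 1299. The median ratio was 0.736 (log2 -0.44). At least 1.5-fold higher were 18 islands (1.23%, against 3.0% of the whole list) and at least 1.5-fold lower 436 (29.7%, against 11.6%). Over all islands of chromosomes 3 and 5 the shares were 0.956% and 28.2%, close to those of the narrow genic islands. The authors' deposited table called 84 (5.72%) higher, beside 21.1% of the list, and 1146 (78.1%) lower, beside 53.3%. On chromosomes 3 and 5 the authors' deposited table called 7.72% higher and 75.4% lower. Narrow islands off genes had a median of 0.648 with 273 of 476 (57.4%) lower, and wide genic islands 0.843 with 314 of 2242 (14.0%) lower.

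All islands of chromosomes 3 and 5 in the sant-null list had a median log2 ratio of -0.39, in the hda9 list -0.80 and in the hda6 list -0.07. Relative to that shift, 102 narrow genic islands were at least 1.5-fold higher in sant-null and 67 lower, where wide genic islands gave 272 and 9. Relative to the shift in hda6, 126 were higher and 18 lower. These recentred counts depend on which lists hold the islands. In sant-null 59 of the 102 higher islands came from the 73 islands of the hda6 and sant-null lists, and the 1249 islands with equal coordinates in all 3 lists gave 16 higher and 64 lower. In hda6 106 of the 126 came from the hda6 list alone, and the same 1249 islands gave 1 higher and 18 lower.

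The lowest sant-null ratios came from islands also below Col-0 in the other mutants, with the same Col-0 value in each ratio. Most islands were below Col-0 in those mutants. Of the 1395 in all 3 lists, 985 were below it in hda6 and 1379 in hda9. AT5G37360 had 5.47 RPM in Col-0 and 1.79 in sant-null (46 reads), a ratio of 0.327 (0.232 to 0.453). Its excess of island over gene reads, in raw counts, is given above. PnsB3, a gene for a subunit of the chloroplast NADH dehydrogenase-like complex, had 3.49 RPM in Col-0, 2.40 in hda6, 1.21 in sant-null and 1.48 in hda9. Its sant-null ratio was 0.346 (0.226 to 0.516), from 31 sant-null reads. The level over the whole gene went from 10.8 RPKM in Col-0 to 6.402 in sant-null.

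The arabinogalactan gene AGP23 had 4.02 RPM in Col-0, 3.27 in hda6, 1.52 in sant-null and 1.49 in hda9, with a ratio of 0.378 (0.258 to 0.541) in sant-null. For cPT5, a cis-prenyltransferase gene, the sant-null ratio was 0.410 (0.276 to 0.595). The sant-null reads were 39 at AGP23 and 37 at cPT5. In AGP23 the hda6 ratio of 0.814 (0.630 to 1.05) did not differ from 1 beyond counting error.

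The highest sant-null ratios among islands of the same coordinates were 1.86 (1.49 to 2.32) at AT5G43620, 1.82 at AT5G11020, 1.73 at AT5G65300 and 1.69 at AT3G52570. AT5G43620 had 4.02 RPM in Col-0, 5.67 in hda6, 7.48 in sant-null and 5.13 in hda9, so Col-0 was the lowest of the 4. It was the 1 of these 4 that all 3 lists held. The AT5G11020 island had 134 raw reads in Col-0 against 120 over its gene. The island total is 1.92 times the gene total in Col-0, so this is not an excess after scaling.

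The third comparison sets hda9 beside Col-0. The hda9 list held an island at 1400 of the 1876, with the same start and end in 1305, and the median ratio was 0.544 (log2 -0.88). No island was at least 1.5-fold higher, against 3.82% of the whole list, and the highest ratio was 1.30. On chromosomes 3 and 5 none of the 5156 islands compared was 1.5-fold higher either, whatever its width or place. At least 1.5-fold lower were 1229 (87.8%), against 32.4% of the list and 77.1% of the islands of chromosomes 3 and 5. The authors' deposited table called 11 (0.786%) higher, beside 20.2% of the list, and 1374 (98.1%) lower, beside 68.7%. On chromosomes 3 and 5 the calls of the authors' deposited table were 0.989% higher and 97.4% lower. Relative to the shift of all islands on these chromosomes, 28 were higher and 21 lower, and among the 1249 islands with equal coordinates in all 3 lists 5 were higher and 20 lower.

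Wide genic islands were lower in hda9 as well, with a median of 0.604 and 1448 of 2140 (67.7%) lower by 1.5-fold, and narrow islands off genes had 0.525 and 424 of 470 (90.2%). The lowest ratio was at PLC1, a phospholipase C gene, with 3.91 RPM in Col-0, 2.83 in hda6, 2.53 in sant-null and 1.21 in hda9 and a ratio of 0.309 (0.234 to 0.406). The whole PLC1 gene differed less, with 8.07 RPKM in Col-0 and 7.33 in hda9. AT3G29690 followed with 0.326 and AT5G14880 with 0.331. GLR3.6, a glutamate receptor-like channel gene, had a ratio of 0.343 (0.259 to 0.452), although its gene had 9.60 RPKM in Col-0 and 12.2 in hda9.

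At the other end, AT5G43620 had a ratio of 1.28 (1.05 to 1.56) in hda9. TIM17-3, a gene of the mitochondrial inner membrane translocase, had 4.61 RPM in Col-0 and 4.77 in hda9, a ratio of 1.03 (0.857 to 1.252). The cell wall protein gene PRP3 had 4.78 RPM in both genotypes. UBP22, a ubiquitin protease gene, had a ratio of 0.964 (0.798 to 1.17). The intervals of the last 3 include 1.

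The 4 genotypes can be set side by side at the 1249 islands with the same start and end in all 3 lists, where the Col-0 reads were the same in each list. The median level was 16.1 RPM per kb in Col-0, 14.8 in hda6, 11.6 in sant-null and 8.83 in hda9. The middle 90% of islands ran from 13.2 to 20.5 in Col-0 and from 6.84 to 10.9 in hda9, so these ranges did not overlap. In hda6 it ran from 11.1 to 19.4 and in sant-null from 8.47 to 16.2. An island in all 3 lists was listed through Col-0 or through each mutant in turn, so the high place of Col-0 is partly set by that choice. At 1176 wide genic islands of the same kind the medians were 15.4, 14.8, 12.1 and 9.28 in that order. At 442 narrow islands off genes they were 15.9, 12.3, 9.98 and 8.42. The ranges of Col-0 and hda9 did not overlap at the narrow islands off genes either, from 13.1 in Col-0 and up to 10.5 in hda9. At the wide genic islands they did, from 11.4 in Col-0 and up to 12.1 in hda9.

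The level of an island was then set against that of its own gene, as the ratio of RPM per kb of island to RPKM of the host. This asks how far the island stands out from its whole gene, over the 1037 of those islands that lie wholly within 1 gene. The gene's value includes the island, so a part is set against the whole. The median ratio was 1.46 in Col-0, 1.26 in hda6, 1.12 in sant-null and 0.912 in hda9. It was below the Col-0 value in 881 of the 1037 islands in hda6, in 888 in sant-null and in 954 in hda9. These islands were kept because all 3 lists hold them, so the high place of Col-0 is partly set by that choice here too.

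Islands of 200 bp stood out more than those of 400 bp, with medians of 1.85 and 1.31 in Col-0 and 0.983 and 0.875 in hda9. The reads of the island and gene tables have totals that differ by 1.90 to 2.14 times, which this ratio takes into account. Ratios of raw reads per base, which do not, were 2.82 in Col-0, 2.57 in hda6, 2.41 in sant-null and 1.73 in hda9, in the same order. At 339 islands of the hda6 list alone, the ratio was 1.33 in Col-0 and 1.29 in hda6, while raw reads per base gave 2.55 and 2.63, so their order depends on the scaling.

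**Figure D5:**
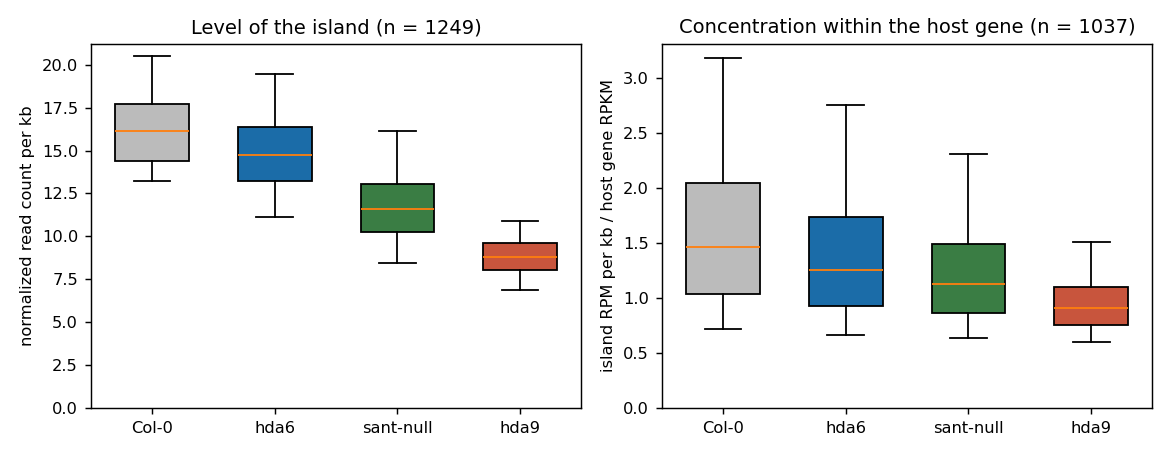
Narrow genic islands with the same start and end in all 3 lists. The left panel shows normalized reads per kb of island (1249 islands) and the right panel the island's RPM per kb divided by the RPKM of its host gene (1037 islands), with boxes for quartiles and whiskers for the 5th and 95th percentile of islands; the medians of both decrease from Col-0 through hda6 and sant-null to hda9, and the choice of islands that all 3 lists hold partly sets the place of Col-0.

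The genes under narrow islands were read by lists of known function, which were chosen with earlier results of these data known. Of all 13797 genes on chromosomes 3 and 5, 1888 (13.7%) were touched by a narrow island. The shares in the lists are given beside that figure, and the lists are small.

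Heat response genes are of interest because the series concerns thermotolerance, and 5 of 29 were touched. HSP81-2, a gene for cytosolic HSP90, had the 1 island at least 1.5-fold higher in hda6, with 4.05 RPM in Col-0 and 6.25 in hda6 and a ratio of 1.54 (1.24 to 1.92). It was in the hda6 list alone. The heat shock factor gene AT-HSFA7B had 3.58 RPM in Col-0, 2.92 in hda6, 2.14 in sant-null and 1.71 in hda9. Its ratio was 0.817 (0.623 to 1.07) in hda6, 0.599 (0.429 to 0.828) in sant-null and 0.479 (0.371 to 0.617) in hda9.

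HSP70, a cytosolic chaperone gene, had 5.61 RPM in Col-0, 5.50 in hda6 and 4.71 in sant-null, while its hda9 island was 4200 bp wide and is not set beside it. CLPB3, a chloroplast chaperone gene, had a ratio of 0.968 in hda6, 0.824 in sant-null and 0.652 in hda9. AT5G51440, a gene of the same list, had 0.827, 0.573 and 0.411. None of the heat genes was at least 1.5-fold lower in hda6, against 2 of 4 in sant-null and 3 of 4 in hda9. The 4 in hda9 include the wide HSP70 island, which was not among the 3 lower. The shares over all narrow genic islands were 1.65%, 29.7% and 87.8%. Relative to the shift of all islands on these chromosomes, none of the heat genes was lower in any mutant.

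Of 14 photosynthesis genes 3 were touched, all for the small subunit of Rubisco, and they lie side by side on chromosome 5. The island of RBCS3B had 6.37 RPM in Col-0, 4.82 in hda6, 4.33 in sant-null and 3.34 in hda9. RBCS1B had 3.32, 2.66, 2.34 and 1.63 RPM in the same order. RBCS2B carried 2 islands. The one near its 5′ end had a ratio of 0.871 (0.673 to 1.13) in hda6 and 0.561 (0.443 to 0.710) in hda9, and the one in its 3′ part 1.246 (0.953 to 1.63) and 0.931 (0.731 to 1.19). The first was in all 3 lists. The second was in the hda6 and hda9 lists alone, whose 5 islands were all above 1 in hda6. The Rubisco genes are near-identical copies, and the sources used here do not say how reads that match several copies were assigned.

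Clock and flowering genes were touched in 4 of 16 cases. The clock repressor genes PRR5 and TOC1 each had 163 reads and 4.55 RPM in Col-0, with 5.58 and 5.73 RPM in hda6. The ratio was 1.23 (0.990 to 1.52) at PRR5, 1.26 (1.02 to 1.56) at TOC1 and 1.32 (1.05 to 1.67) at ZTL, whose product marks clock proteins for breakdown. All 3 islands were in the hda6 list alone. The fourth gene was FLC (AT5G10140), a repressor of flowering, whose island also lies in the antisense non-coding gene AT5G01675 and had 6.95 RPM in Col-0, 6.37 in hda6, 5.38 in sant-null and 4.25 in hda9. ChIP reads carry no strand of the transcript, so the island belongs to both genes.

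Among genes for abscisic acid, dehydration and cold, 2 of 11 were touched. At HAI1, a phosphatase gene of abscisic acid signalling, the ratio was 0.881 (0.712 to 1.09) in hda6, 0.818 (0.644 to 1.04) in sant-null and 0.474 (0.386 to 0.581) in hda9. LTI78, a gene induced by cold and drought, had a ratio of 1.11 (0.900 to 1.38) in hda6, and its sant-null island was 1200 bp wide with a ratio of 1.52 (1.31 to 1.76). Of 13 jasmonate and defence genes, JAZ12 and JAZ3, which encode repressors of jasmonate responses, were touched. JAZ3 had 7.26 RPM in Col-0, 6.23 in hda6, 4.60 in sant-null and 3.33 in hda9, with the island centred 106 bp before the gene. JAZ12 had 3.52, 2.75, 2.30 and 1.62 RPM. Both were in the same order across genotypes as the median island.

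Chromatin genes were touched in 6 of 23 cases and none passed 1.5-fold in hda6. The histone H3 gene AT5G65360 had 5.70 RPM in Col-0, 6.81 in hda6, 5.45 in sant-null and 3.23 in hda9. The neighbouring H3 gene HTR11 had 5.42, 5.99, 4.64 and 4.24 RPM. The H4 gene AT5G59690 had a ratio of 1.37 (1.12 to 1.69) in hda6 and was in the hda6 list alone, and the H4 gene AT3G53730 had 1.17 (0.955 to 1.43). HAM2, a histone acetyltransferase gene, had 1.02 (0.834 to 1.248) and ELO3, the catalytic subunit gene of Elongator, 0.953 (0.788 to 1.15). Histone genes come in near-identical copies, with the limit named for Rubisco.

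Of 14 housekeeping genes 4 were touched. The tubulin genes TUB2 and TUB3, which are near-identical neighbours, carried 2 islands each at similar places, and their hda6 ratios ran from 0.937 to 1.14. UBQ3, a polyubiquitin gene, had a ratio of 1.32 (1.07 to 1.63) in hda6 and UBQ5 had 1.08 (0.889 to 1.32). In hda9, UBQ5 had 3.58 RPM against 5.78 in Col-0, a ratio of 0.620.

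Families taken by gene name were broader. Cytochrome P450 genes had 29 of 108 touched by 34 islands, with none past 1.5-fold in hda6, 6 of 28 lower in sant-null and 19 of 27 lower in hda9, beside 29.7% and 87.8% of all narrow genic islands. CYP707A3, for an enzyme that breaks down abscisic acid, had 3.83 RPM in Col-0, 5.41 in hda6 and 5.53 in sant-null, ratios of 1.41 (1.13 to 1.77) and 1.45 (1.14 to 1.84). Its island was in the hda6 and sant-null lists alone. Of the 73 islands of that kind, all were above 1 in hda6 and 68 in sant-null. CYP72A9 and CYP72A13 lie in the same cluster on chromosome 3 and had hda6 ratios of 0.729 (0.590 to 0.898) and 1.34 (1.08 to 1.67). The CYP72A9 island was in all 3 lists. The CYP72A13 island was in the hda6 list alone, which fixes its direction, so the 2 ratios are not a contrast between the genes. The median log2 ratio of the P450 islands was -0.01 in hda6, -0.27 in sant-null and -0.80 in hda9, beside -0.02, -0.44 and -0.88 in all narrow genic islands.

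Transcription factor genes had 31 of 243 touched by 34 islands. DPB, for a dimerisation partner of E2F factors, had the 1 island past 1.5-fold in hda6, with 3.46 RPM in Col-0 and 5.44 in hda6, and was in the hda6 list alone. WRKY72 had the lowest hda6 ratio of the class, 0.740 (0.594 to 0.920), followed by MIF2 with 0.747 (0.610 to 0.914). In sant-null 7 of 29 and in hda9 24 of 29 were at least 1.5-fold lower, again beside 29.7% and 87.8%. Medians were -0.11, -0.43 and -0.88 on the log2 scale, close to those of all narrow genic islands.

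Protein kinase genes had 15 of 65 touched, and CRK4, a cysteine-rich receptor-like kinase gene, had the 1 island at least 1.5-fold lower in hda6, with 5.53 RPM in Col-0 and 3.65 in hda6 and a ratio of 0.661 (0.524 to 0.831). MAPKKK20, a gene of the MAP kinase cascade, had 1.47 (1.21 to 1.79). Its island was in the hda6 and sant-null lists alone, whose 73 islands were all above 1 in hda6. Ribosomal protein genes had 4 of 32 touched, with hda6 ratios from 0.919 at PSRP6 to 1.17 at RPS5A. In hda9 all 4 were at least 1.5-fold lower, as were 87.8% of all narrow genic islands, with ratios of 0.545 at PSRP6, 0.549 at RPS10, 0.627 at EMB3126 and 0.543 at RPS5A.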

How the data were processed

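The values come from tables the authors deposited for Khib ChIP-seq of 12-day-old seedlings (16 h light, 8 h dark, 22 °C; fixed in 1% formaldehyde for 15 min, per the labels). The 16 samples form 8 groups of 2, ChIP and input of 4 genotypes. The sources used here do not say how replicates were combined or whether input entered. The submitters' processing notes name the build TAIR10 and the tools bedtools, SICER 1.0.3, Bowtie2 2.2.5 and CASAVA. The authors deposited read counts per island, and the same as RPM, per the file headers. For each island they also hold p-values, an FDR and a fold by the authors, which is a ratio of library-scaled counts with 1 read added to each. Gene tables hold RPKM by the authors for 32548 genes, and 100% of values came out as whole reads with a tolerance of 0.01 reads. No column of per-sample values was left unmapped.

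Ratios here are RPM in the mutant over RPM in Col-0 with nothing added, without a test. For a fold past a limit, 1.5 was used. Islands of the sant-null and hda9 lists were matched by the longest overlap, at least 1 bp. Intervals are conditional exact (Clopper-Pearson, 95%), cover counting error only, and ChIP reads are not independent molecules. Coordinates are 1-based. Islands were named by rule among those with at least 50 reads in both Col-0 and hda6. These were the 8 highest and 8 lowest hda6 ratios and the 6 highest Col-0 levels per kb. The 4 highest and 4 lowest ratios in sant-null and hda9 came from islands of equal coordinates. Up to 2 highest and 2 lowest were named per gene list. The limit of 50 reads was not applied to sant-null reads. Other members of a list, and hosts with 3 or more islands, were named after their values were seen. Members and lists were chosen with earlier results of these data known. Families by name were matched on symbols and synonyms, which is loose: the matches for pentatricopeptide repeat were other genes and are not reported, transposable element genes had no match, and F-box (2 islands), disease resistance (1 island) and heat shock by name (5 islands) had no island past 1.5-fold in hda6 except HSP81-2. Names came from the TAIR10.1 annotation, used for names only, in which all 1775 hosts were found and 747 had a symbol. The 1.5-fold limit and the intervals were tried on simulated independent counts with planted changes. The other steps were not tried in this way. Python 3.11.15, numpy 2.4.6, pandas 2.3.3, scipy 1.17.1 and matplotlib 3.10.9 were used.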

Additional observations from a re-analysis of the deposited data

How the results depend on the processing

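No paired analysis was possible because the tables hold 1 value per genotype, and for the same reason no replicate could be left out. Of 180 values under other settings, 124 stayed near the reported ones and 56 moved. The sign of the hda6 median changed on recentring and with RPKM totals, and recentring left more islands higher than lower in sant-null and hda9. The median log2 ratio in hda6 was 0.0535 when recentred on all islands of chromosomes 3 and 5, 0.0681 with library totals from the RPKM tables, -0.000996 for islands up to 600 bp, -0.11 for 200 bp and -0.13 for equal coordinates in all 3 lists. In sant-null it was -0.0494 recentred, -0.40 with 0.5 added to both normalized counts, -0.55 for 200 bp, -0.50 at positions covered on no other chromosome, -0.49 for equal coordinates in all 3 lists, -0.29 with RPKM totals, -0.468 for identical start and end and -0.467 for overlapping islands up to 400 bp. In hda9 it was -0.0807 recentred, -0.77 with 0.5 added, -1.02 for 200 bp, -0.96 without repeated positions and -0.90 with RPKM totals.

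The share at least 1.5-fold higher in hda6 was 6.72% recentred, 2.40% with 0.5 added, 7.25% with RPKM totals and 0.0801% for equal coordinates in all 3 lists, and at a looser and a 2-fold limit it was 16.5% and 0.107%. The share lower was 0.960% recentred, 0.906% with 0.5 added, 0.906% with RPKM totals, 3.54% for 200 bp and 2.48% for equal coordinates, and 12.3% and 0.0533% at the other limits. In sant-null the share higher was 6.95% recentred, 2.86% with RPKM totals, 0.0801% for equal coordinates in all 3 lists, 0.462% for identical start and end and 0.801% up to 400 bp, and 4.43% and 0% at the other limits. The share lower was 4.56% recentred, 15.9% with RPKM totals and 45.8% for 200 bp, and 66.5% and 3.88% at the other limits. In hda9 the share higher was 2% recentred and 0.286% at the looser limit, and the share lower 1.5% recentred and 30.9% at 2.

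By the authors' deposited table, the share called higher in hda6 was 4.56% for equal coordinates, and the share lower 13.9% at an FDR under 0.01. In sant-null the share higher was 3.29% for 200 bp, 0.961% for equal coordinates in all 3 lists, 2.69% for identical start and end and 3.13% up to 400 bp. In hda9 it was 0.0801%, 0.0766% and 0.145% for the last 3 settings. Equal coordinates and RPKM totals were chosen after seeing the data. Other causes were not tested. Islands of 50 to 200 reads give wide counting intervals, so single ratios near 1 were not resolved.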

Other observations

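A few hosts carried 3 or 4 narrow islands, and the ratios differed among the islands of a host. The lists that hold an island bear on its ratio, so they are given for each host. These genes were chosen after their values were seen. AT3G11130, which the reference also names CHC1 for clathrin heavy chain 1, carried 4. The island 265 bp from its 5′ end had a ratio of hda6 to Col-0 of 1.03 (0.856 to 1.247) and the one near its 3′ end 0.986 (0.806 to 1.20). Between them, the islands 5465 and 7265 bp from the 5′ end had 1.47 (1.19 to 1.83) and 1.27 (1.01 to 1.59). The island at 7265 bp was in the hda6 and sant-null lists alone, whose 73 islands were all above 1 in hda6. The rest were in all 3 lists. In sant-null the inner island at 5465 bp lay in a 600 bp island with 6.12 RPM in Col-0 and 12.1 in sant-null, a ratio of 1.97 (1.66 to 2.36), and in hda9 its ratio was 1.30 (1.11 to 1.53). Over the whole gene the values were 6.60 RPKM in Col-0, 7.71 in hda6, 8.99 in sant-null and 10.5 in hda9.

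TT7, the flavonoid hydroxylase gene of the transparent testa series, carried 3 islands with hda6 ratios of 0.961, 0.889 and 1.26 from the 5′ to the 3′ end, and hda9 ratios of 0.509, 0.458 and 0.719. All 3 lists held each of the TT7 islands. PMR6, a pectate lyase-like gene, had hda6 ratios of 1.16, 1.27 and 0.930 in the same order. The PMR6 island with 1.27 was in the hda6 list alone, which fixes its direction, and the others were in all 3 lists. AT5G42950 had 1.495 (1.12 to 2.00), 1.54 (1.254 to 1.90) and 1.12 (0.924 to 1.37). The first and second of its islands were in the hda6 list alone, and the last was in all 3 lists.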
